A study of Mus musculus with 7 samples.

Results

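Genes of sebaceous gland lipid synthesis were examined in lesional skin of bleomycin-treated mice that lacked or carried OX40L, the costimulatory ligand encoded by Tnfsf4. The set was named by function, and 10 gene symbols were listed: Scd1, Scd3, Elovl3, Fa2h, Far1, Far2, Awat1, Awat2, Mc5r and Soat1. A probe set with the platform symbol was found for 9 of the 10, among 23185 named probe sets in all, and Soat1 was not analysed here. Scd3 and Awat1 had been noted as higher in knockout skin before the set was drawn up, so the set was in part chosen by the measured knockout minus wild type difference of these 2 genes. The genotype differences of the 9 genes are therefore given as a description, without a test.

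There were 4 arrays of ox40l-/- skin and 3 arrays of ox40l+/+ skin, from male C57BL/6 mice 9 weeks old. All 7 samples came from lesional skin after 3 weeks of bleomycin injection, a common way to induce dermal fibrosis in mice, so every contrast here is between genotypes under bleomycin and none measures the response to bleomycin. The labels give no promoter or cell type for the deletion, which they describe only by genotype. Nor do they tie the samples to separate animals. Each description carries a code of unstated meaning, and the code number, apart from a trailing letter, is shared by knockout replicates 1 and 2, by wild type replicates 1 and 2, and by knockout replicate 3 and wild type replicate 3, which differ in genotype. Arrays that share a number could share a source, so the spread between arrays may be partly technical, and the standard errors, intervals and p-values below treat the 7 arrays as independent.

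Sebaceous glands are lipid-secreting appendages of the hair follicle. Their cells, sebocytes, make fatty acids, desaturate and elongate them, reduce part of them to fatty alcohols, and join alcohols and acids into wax esters, after which the cell bursts and releases its content as sebum. Several of these enzymes also work elsewhere in skin: Scd1 is abundant in adipocytes, and Elovl3 is found in the hair follicle and in brown fat.

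The arrays were unequal before any gene was considered. Correlations between arrays, taken over probe sets that are no independent replicates, were 0.956 to 0.968 (Pearson) among the 4 knockout arrays and wild type replicate 2, and 0.761 to 0.914 for pairs that held wild type replicate 1 or 3. Log2 values were the most spread on wild type replicate 1 (SD 1.72) and the least on wild type replicate 3 (SD 1.22), and the other 5 arrays had SDs of 1.38 to 1.48. Among the 3157 genes with a mean at or above that of the median sebaceous gene, wild type replicate 3 was the lowest of the 7 arrays in 61.9% and wild type replicate 1 the highest in 51.7%. Awat1, Awat2, Elovl3 and Mc5r have lower means than that, so wherever this group is used below it is brighter than part of the set. Tnfsf4 itself had log2 values of 2.81 to 3.35 in knockout and 2.53 to 3.65 in wild type, but where its probe set lies relative to the deleted part is not known here, so it checks nothing about the labels. Krt14, a keratin that marks epidermis and so the labelled tissue, had log2 values of 10.24 to 10.67 in knockout and 9.54 to 10.94 in wild type.

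The promoters of the 3 genes with the largest differences among those in the RefSeq promoter table are shown, to set the start regions of these genes beside their levels. The table held promoters of 5 of the 10 genes, Scd3, Awat1, Awat2, Far1 and Far2. Each window runs from 250 bases before to 50 after the annotated start, in build GRCm38.p6, and capitals mark matches on either strand to the motifs named after them.
Scd3 (chr19:44203038-44203337, + strand): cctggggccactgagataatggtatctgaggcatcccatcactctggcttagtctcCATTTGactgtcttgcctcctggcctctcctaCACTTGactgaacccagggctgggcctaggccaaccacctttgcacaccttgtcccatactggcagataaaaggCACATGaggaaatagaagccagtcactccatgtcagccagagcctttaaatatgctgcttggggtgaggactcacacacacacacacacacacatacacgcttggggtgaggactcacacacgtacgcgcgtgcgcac
Awat1 (chrX:100571997-100572296, + strand): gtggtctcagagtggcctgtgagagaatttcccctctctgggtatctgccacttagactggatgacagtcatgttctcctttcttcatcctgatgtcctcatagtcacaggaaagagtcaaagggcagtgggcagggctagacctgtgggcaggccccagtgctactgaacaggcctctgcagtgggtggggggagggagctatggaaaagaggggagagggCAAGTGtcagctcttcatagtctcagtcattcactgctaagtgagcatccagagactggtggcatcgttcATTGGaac
Far2 (chr6:148047166-148047465, + strand): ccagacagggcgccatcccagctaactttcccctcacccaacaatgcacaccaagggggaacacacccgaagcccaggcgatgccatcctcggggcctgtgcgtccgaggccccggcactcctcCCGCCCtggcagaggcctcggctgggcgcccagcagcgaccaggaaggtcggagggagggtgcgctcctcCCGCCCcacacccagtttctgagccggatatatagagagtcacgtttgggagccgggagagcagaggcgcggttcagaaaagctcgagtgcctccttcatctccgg
The motifs were searched on both strands. The TATA box, spelled TATAAA, was present in 13.6% of the 32851 promoters in the table, which have the same length. The CCAAT box was in 37.4%, the E-box, spelled CANNTG, in 72.3%, and the GC box, spelled GGGCGG, in 35.7%. A sterol regulatory element, spelled TCACNCCAC, was in 1.24%, and a perfect PPAR direct repeat was in 0.0396%. The Scd3 window held 3 E-boxes and no other motif of these. The Awat1 window held 1 E-box and 1 CCAAT box, and the Far2 window held 2 GC boxes. No matches overlapped in these 3 windows. The Scd3 and Awat1 windows thus shared the E-box, no motif of these was in all 3 windows, and a match or its lack is a description of letters only.

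Scd3, a stearoyl-CoA desaturase that in mice is largely restricted to sebaceous and related glands, was higher in every knockout array than in any wild type array. Its log2 values, as deposited after robust multi-array averaging (RMA), were 6.68, 6.67, 7.62 and 6.67 in knockout replicates 1 to 4 and 5.71, 6.12 and 5.28 in wild type replicates 1 to 3. Knockout replicate 3 lay well above the other 3 knockout arrays, which were nearly equal. Knockout arrays averaged 6.91 ± 0.47 (SD, n = 4) and wild type arrays 5.70 ± 0.42 (SD, n = 3). The difference was 1.21 (SE 0.31), or 2.31-fold (95% interval 1.41 to 3.80). Scd3 had been noted as higher in knockout by this same contrast, so the interval is no test and the difference may be overstated. The difference was 0.97 to 1.42 with any single array left out and 0.79 against wild type replicate 2 alone. In whole skin, more cells that express a gene and more RNA per cell cannot be told apart, for this gene as for those that follow. Nor is it known here which cell type gave the signal.

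Scd1, the main desaturase of mouse sebaceous glands and of adipose tissue, which forms monounsaturated fatty acids, did not separate the genotypes. Its log2 values were 7.83, 7.93, 9.42 and 9.00 in knockout and 8.77, 7.89 and 4.94 in wild type. Wild type replicates 1 and 2 lay within the knockout range, and only wild type replicate 3 was far below it. The difference of 1.34 (SE 0.90, 95% interval -0.76 to 3.44) was the largest of the 9 genes and also the least precise, and it was 0.21 without wild type replicate 3 and 2.12 without wild type replicate 1.

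**Figure D1:**
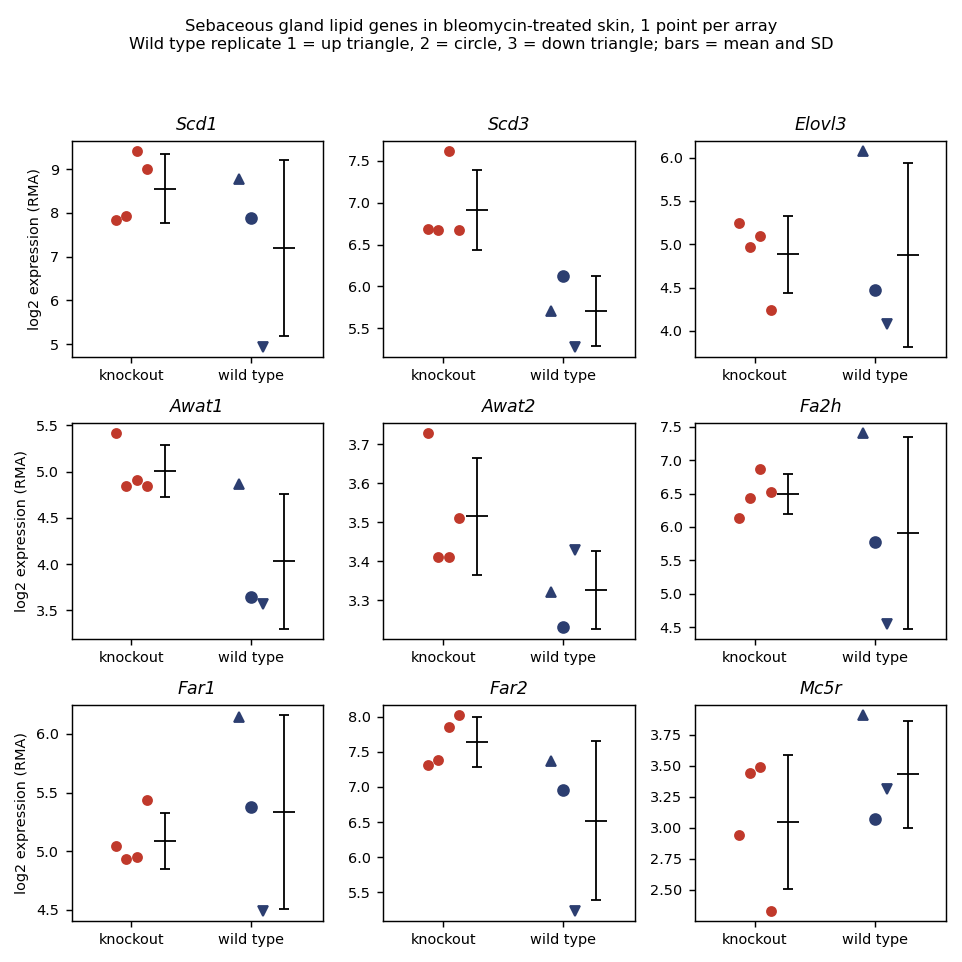
Log2 expression (vertical axes, RMA values) of the 9 measured sebaceous lipid genes in knockout and wild type skin, 1 point per array, with the mean and SD of each genotype as a bar beside the points. Each panel has its own axis, which does not start at 0. The Scd3 points of the genotypes do not overlap (6.67 to 7.62 in knockout, 5.28 to 6.12 in wild type), and wild type replicate 3, the down triangle, is the lowest array in 7 of the 9 panels.

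The Scd genes form a tandem cluster on chromosome 19, in the order Scd3, Scd2, Scd4, Scd1 among protein-coding genes of the RefSeq table, and the 4 genes did not share a profile. Scd2, the broadly expressed desaturase, had log2 values of 4.95, 4.06, 4.21 and 4.64 in knockout and 6.43, 4.64 and 4.07 in wild type, a difference of -0.58 (SE 0.54, limma adjusted p = 0.9995). The high value was on wild type replicate 1, and without that array the difference was 0.11. Scd4, whose main site is the heart, was dim on all arrays, at 2.53 to 2.60 in knockout and 2.33 to 2.76 in wild type, a difference of 0.04 (SE 0.14, limma adjusted p = 0.9995). Near-identical stretches of such paralogues can cross-hybridise, so each value belongs to its probe set.

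**Figure D2:**
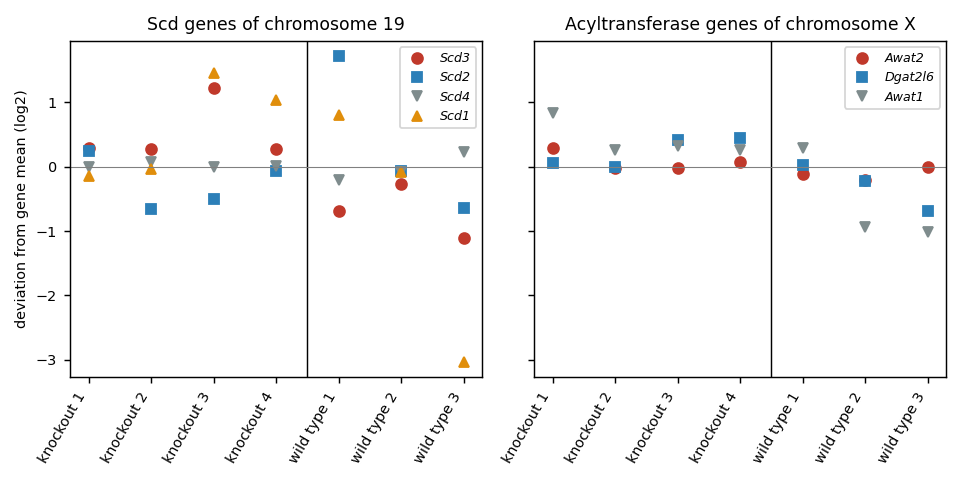
Deviation of each gene from its own mean over the 7 arrays (vertical axis, log2) for the Scd genes of chromosome 19 (left) and the acyltransferase genes of chromosome X (right), by array. Scd3 is above its mean on the 4 knockout arrays and below it on the 3 wild type arrays, Scd1 is far below its mean on wild type replicate 3 (4.94), and Scd2 is highest on wild type replicate 1 (6.43).

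Elovl3 and Fa2h modify the fatty acids further and did not separate the genotypes. Elovl3, an elongase of saturated and monounsaturated very long chains, had log2 values of 5.24, 4.97, 5.09 and 4.24 in knockout and 6.08, 4.47 and 4.08 in wild type. Both genotypes averaged 4.88, with an SD of 0.44 over 4 knockout arrays and of 1.06 over 3 wild type arrays. The difference of 0.01 (SE 0.49, 95% interval -1.14 to 1.16) leaves room for anything from 0.453-fold to 2.23-fold. It was 0.61 without wild type replicate 1 and -0.39 without wild type replicate 3.

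Fa2h, which adds the 2-hydroxyl group found in many sebaceous and epidermal lipids, had log2 values of 6.13, 6.44, 6.86 and 6.52 in knockout and 7.41, 5.77 and 4.55 in wild type. The 3 wild type arrays spanned a range of 2.86 that enclosed all knockout values, whose range was 0.73. The difference was 0.58 (SE 0.60, 95% interval -0.84 to 1.99), and it was 1.33 without wild type replicate 1 and -0.10 without wild type replicate 3.

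The fatty acyl-CoA reductases Far1 and Far2 supply the alcohols of wax esters, and their mean differences had opposite signs. Far2 had log2 values of 7.31, 7.38, 7.85 and 8.03 in knockout and 7.37, 6.95 and 5.23 in wild type. Knockout replicate 1 lay below wild type replicate 1 by a small margin, and otherwise the knockout arrays were above. The difference was 1.12 (SE 0.50, 95% interval -0.05 to 2.29). It was 0.48 without wild type replicate 3 and 0.69 against wild type replicate 2 alone.

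Far1, the more widely expressed reductase, which also serves ether lipid synthesis, had log2 values of 5.04, 4.93, 4.95 and 5.44 in knockout and 6.14, 5.38 and 4.49 in wild type. The knockout arrays lay inside the wild type range. The difference was -0.25 (SE 0.37, 95% interval -1.11 to 0.62), at 0.16 without wild type replicate 1 and -0.67 without wild type replicate 3.

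Awat1 and Awat2 are the wax synthases that esterify fatty alcohols, and Awat1 had the larger genotype difference. Awat1 had log2 values of 5.42, 4.84, 4.91 and 4.84 in knockout and 4.87, 3.65 and 3.57 in wild type. The genotypes overlapped through wild type replicate 1, which lay between the knockout values, while wild type replicates 2 and 3 were over 1 log2 unit below all of them. Knockout arrays averaged 5.0 ± 0.28 (SD, n = 4) and wild type arrays 4.03 ± 0.73 (SD, n = 3). The difference was 0.98 (SE 0.34), or 1.97-fold (95% interval 1.13 to 3.42). Awat1 too had been noted as higher in knockout by this contrast, so its interval is no test and the difference may be overstated. The difference was 0.75 without wild type replicate 3 and 1.36 against wild type replicate 2 alone.

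Awat2, the wax synthase best known from the Meibomian gland of the eyelid, was dim. Its log2 values were 3.73, 3.41, 3.41 and 3.51 in knockout and 3.32, 3.23 and 3.43 in wild type, and 1 of the 7 arrays exceeded the median of all deposited values, 3.60. The genotypes overlapped through wild type replicate 3, and the difference was 0.19 (SE 0.14, 95% interval -0.14 to 0.52). Without knockout replicate 1, the highest array, it was 0.12.

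Dgat2l6, a relative of the diacylglycerol and wax synthases, lies between Awat2 and Awat1 on chromosome X, with Otud6a and Igbp1 also between Awat2 and it. Its log2 values were 4.27, 4.21, 4.63 and 4.66 in knockout and 4.24, 4.00 and 3.53 in wild type. The genotypes overlapped only between knockout replicate 2 and wild type replicate 1, and the difference was 0.52 (SE 0.22, limma adjusted p = 0.9995). It was 0.32 without wild type replicate 3.

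Mc5r, the melanocortin receptor that stimulates sebum output in mice, was dim and was not higher in knockout. Its log2 values were 2.94, 3.44, 3.49 and 2.33 in knockout and 3.91, 3.07 and 3.31 in wild type, with 1 of 7 arrays above the median of all values. The genotypes overlapped, with a difference of -0.38 (SE 0.34, 95% interval -1.17 to 0.41). It was -0.14 both without wild type replicate 1 and without knockout replicate 4, and -0.02 against wild type replicate 2 alone.

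Of the measured genes, 7 of 9 had a higher mean in knockout and 2, Far1 and Mc5r, a lower one. The median difference was 0.578, beside a median of 0.010 and a share of 51.7% higher over all 23185 genes. Genotypes did not overlap for 1 of the 9 genes, Scd3, against 1.91% of all genes. Of all genes 1.10% were higher in every knockout array than in any wild type array, as Scd3 was, and 0.815% were lower, as 0 of the 9 were. These counts come from the contrast that had a part in naming the genes, and nothing is read from them.

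**Figure D3:**
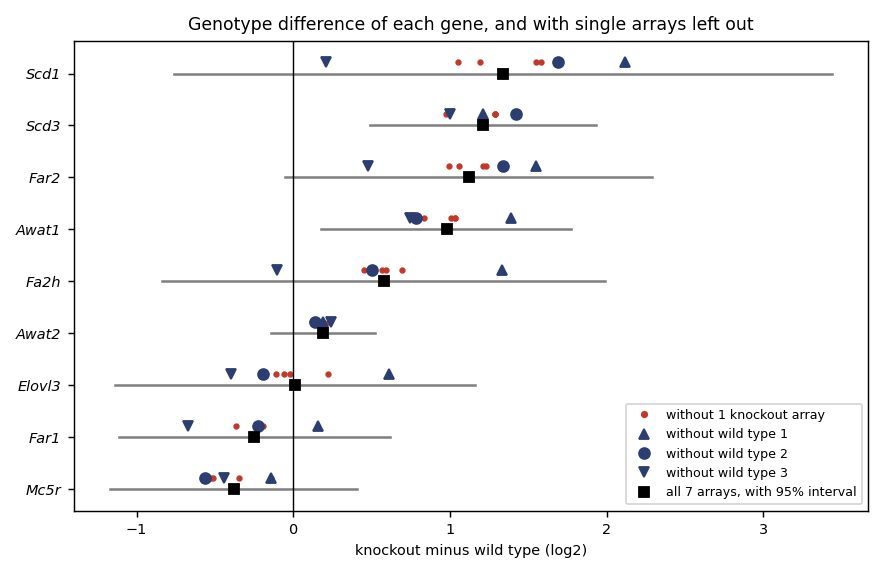
Difference knockout minus wild type (horizontal axis, log2) of each gene over all 7 arrays (square, with its 95% confidence interval) and with each array left out in turn (red dots, knockout arrays; blue symbols, wild type arrays). Scd3 runs from 0.97 to 1.42 and Awat1 from 0.75 to 1.39. Scd1 runs from 0.21 to 2.12 and Fa2h from -0.10 to 1.33, both with wild type replicates 3 and 1 at the ends. Scd3 and Awat1 had been noted as higher beforehand, so nothing is read from their narrower ranges.

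How far the set stands above wild type depended on wild type replicates 1 and 3. The mean deviation of the 9 genes from their own means was 0.14, 0.10, 0.50 and 0.17 in knockout replicates 1 to 4 and 0.50, -0.28 and -1.13 in wild type replicates 1 to 3. Wild type replicate 1 reached the level of the highest knockout array, so the set level did not separate the genotypes. Wild type replicate 3 was the lowest array for 7 of the 9 genes, 77.8%, beside 61.9% of genes with a mean at least that of the median sebaceous gene. Without it 5 of the 9 genes were higher in knockout and the median difference was 0.211, beside 0.078 over all genes and -0.295 over the genes of at least that mean. Without wild type replicate 1 the median was 1.212, beside 0.236 over the genes of at least that mean, and against wild type replicate 2 alone it was 0.649 with 7 of 9 higher.

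The arrays were also put on a common distribution. After quantile normalization 7 of the 9 genes were higher in knockout, the median difference was 0.816, beside 0.113 over the genes of at least the mean of the median sebaceous gene, and Scd3, Awat1 and Far2 were each higher in every knockout array than in any wild type array, where 2.56% of all genes were. Scaling all arrays to the same median and SD gave a median of 0.791 and the same 3 genes, beside 2.28% of all genes. Scd3 and Awat1 had been noted as higher in knockout before the set was drawn up, so nothing is read from these counts. The differences after quantile normalization were 1.29 for Scd3, 1.15 for Awat1, 1.29 for Far2 and 1.50 for Scd1, and that of Far1 was -0.04.

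The wild type spread was larger than the knockout spread in 6 of the 9 genes, 66.7%, beside 76.9% of all genes and 90.2% of the genes with a mean at least that of the median sebaceous gene. Scd3, Awat2 and Mc5r were the exceptions to the larger wild type spread. Awat1, Awat2, Elovl3 and Mc5r have means below that of the median sebaceous gene, so the 90.2% covers a range of levels unlike that of the 9 genes. Scd1 had the widest wild type spread (SD 0.79 over 4 knockout arrays and 2.0 over 3 wild type arrays) and Awat2 the narrowest (SD 0.15 over 4 knockout arrays and 0.10 over 3 wild type arrays). For Scd3, Awat1 and Awat2 a value occurred on 2 arrays with exactly the same 6 decimals, as RMA's median polish can give, and this was so for 53.8% of all probe sets.

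Genes that supply fatty acids and sterols to the gland had a median genotype difference near 0. Of 26 listed, 23 were measured, 13 with a higher and 10 with a lower mean in knockout, with a median difference of 0.043 beside 0.010 over all genes, and 16 were higher after quantile normalization or scaling. In limma 0 of them had an adjusted p under 0.05, against 0.00431% of all genes, and 0 an unadjusted p under 0.05, against 1.88%. The 3 with the smallest p were Acacb, an acetyl-CoA carboxylase, at 0.23 (SE 0.16), Fads2, the delta-6 desaturase, at -0.60 (SE 0.41), and Me1, a malic enzyme that supplies NADPH, at 0.66 (SE 0.50), each with a limma adjusted p of 0.9995. Fasn, the fatty acid synthase, had log2 values of 4.91, 4.88, 6.71 and 5.77 in knockout and 6.63, 6.02 and 4.24 in wild type, a range that the genotypes shared; it was named after its values were seen. Knockout replicate 3, the highest knockout array for Scd1, Scd3 and Fa2h, was also the highest knockout array for Fasn. The median difference of this list was -0.377 without wild type replicate 3.

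Other genes of the same enzyme and receptor families had a median near 0 as deposited, though not once dim genes were dropped. Of 17 listed, 16 were measured, 9 higher and 7 lower, with a median of 0.044. Among those left after the dimmest 30% of all genes were dropped, the median was 0.263. In limma 0 of them had an adjusted p under 0.05, against 0.00431% of all genes. Only 1 of the 16, Dgat2l6, had an unadjusted p under 0.05, against 1.88% of all genes. Elovl5, an elongase of polyunsaturated fatty acids, had log2 values of 7.13, 7.08, 7.50 and 7.39 in knockout and 7.20, 6.86 and 5.0 in wild type, a difference of 0.92 (SE 0.50) that was 0.24 without wild type replicate 3. Mogat1, a monoacylglycerol acyltransferase, differed by 0.28 (SE 0.15), and both had a limma adjusted p of 0.9995.

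Other listed markers of sebocytes, of the sebaceous duct and of the follicle junctional zone were split between the directions. Of 11 listed, 10 were measured, 5 higher and 5 lower, with a median difference of -0.063. In limma 0 of them had an adjusted p under 0.05, against 0.00431% of all genes. The sign of the median difference turned on single arrays, at 0.345 without wild type replicate 1 and -0.324 without wild type replicate 3. Acsbg1, an acyl-CoA synthetase, had log2 values of 4.54, 4.65, 4.62 and 4.96 in knockout and 4.47, 4.29 and 4.10 in wild type. Its genotypes did not overlap, as was so for 1.91% of all genes. It differed by 0.40 (SE 0.16, limma adjusted p = 0.9995). It was the 1 marker of the 10 with an unadjusted limma p under 0.05, against 1.88% of all genes. Lrig1, a stem cell marker of the follicle junctional zone, differed by -0.49 (SE 0.30) and Gata6, a transcription factor of the sebaceous duct, by 0.41 (SE 0.26), each with a limma adjusted p of 0.9995. Pparg, the receptor that drives sebocyte and adipocyte differentiation, had log2 values of 5.34, 5.40, 6.55 and 5.75 in knockout and 5.30, 5.94 and 4.73 in wild type, overlapping. Pparg was highest on knockout replicate 3, as were Scd1 and Scd3. So were some adipocyte markers, such as Adipoq and Cd36, but not others, such as Retn and Lipe. Krt79, a keratin of the sebaceous duct, was at 5.65 to 5.75 in knockout and at 8.43, 5.67 and 4.70 in wild type. Pparg and Krt79 were named after their values were seen.

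Markers of other tissues in the samples moved between arrays as well. Adipocyte markers were higher in 11 of 13 measured, with a median difference of 0.363 and a mean deviation of -0.17 to 0.37 in knockout and of 0.19, 0.01 and -0.79 in wild type replicates 1 to 3. Without wild type replicate 3 the median was 0.083, with 8 of 13 higher. It was 0.359 without wild type replicate 1 and 0.165 without wild type replicates 1 and 3 together. After quantile normalization it was 0.466, with 12 of 13 higher, and after scaling 0.461, with 11 of 13 higher. Adipoq, the adipocyte hormone adiponectin, differed by 0.67 (SE 0.36), Cd36, a fatty acid transporter, by 0.96 (SE 0.56), and Retn, the hormone resistin, by 0.43 (SE 0.27), each with a limma adjusted p of 0.9995. Skeletal muscle markers were higher in 11 of 11, with a median of 0.621 and a mean deviation of -0.03 to 0.69 in knockout and of -0.01, 0.31 and -1.38 in wild type. Without wild type replicate 3 the median was 0.119, with 10 of 11 higher, and without wild type replicates 1 and 3 it was -0.002, with 5 of 11 higher. Mylpf, a fast myosin light chain, differed by 0.62 (SE 0.30), Tnnt3, fast troponin T, by 0.91 (SE 0.49), and Myh4, a fast myosin heavy chain, by 1.16 (SE 0.73), each with a limma adjusted p of 0.9995. These lists, like the 9 sebaceous genes, were lowest on wild type replicate 3, and their part in the result was not tested.

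Hair follicle markers were lower in 16 of 16 measured, with a median of -1.447 and a mean deviation of -1.30 to -0.21 in knockout and of 3.44, 0.05 and -0.75 in wild type. Without wild type replicate 1 the median was -0.299, with 3 of 16 higher, and without wild type replicates 1 and 3 it was -0.47, with 3 of 16 higher. Krt33b, a hair cortex keratin, differed by -0.40 (SE 0.17), Padi3, which modifies hair proteins, by -1.24 (SE 0.61), and Krt25, an inner root sheath keratin, by -2.90 (SE 1.47), each with a limma adjusted p of 0.9995. Krt33b was the 1 marker of the 16 with an unadjusted limma p under 0.05, against 1.88% of all genes. Padi3 was the 1 marker of the 16 whose genotypes did not overlap, against 1.91% of all genes. Epidermal markers had no steady direction. As deposited, 3 of 10 were higher and 7 lower, with a median of -0.039 and a mean deviation of -0.13 to 0.13 in knockout and of 1.03, -0.07 and -0.95 in wild type. After scaling 8 of 10 were higher (median 0.161) and after quantile normalization 6 of 10 (median 0.027). The median was 0.505 without wild type replicate 1 and -0.492 without wild type replicate 3. Krt10, a keratin of upper epidermis, differed by 0.60 (SE 0.53), Krt5, a basal keratin, by -0.51 (SE 0.53), and Lor, the envelope protein loricrin, by 0.17 (SE 0.15), each with a limma adjusted p of 0.9995. Both lists were highest on wild type replicate 1, the array where Elovl3, Far1, Fa2h and Mc5r were also highest, and their part in the result was not tested. None of the 4 marker lists of other tissues had a member with a limma adjusted p under 0.05, against 0.00431% of all genes.

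**Figure D4:**
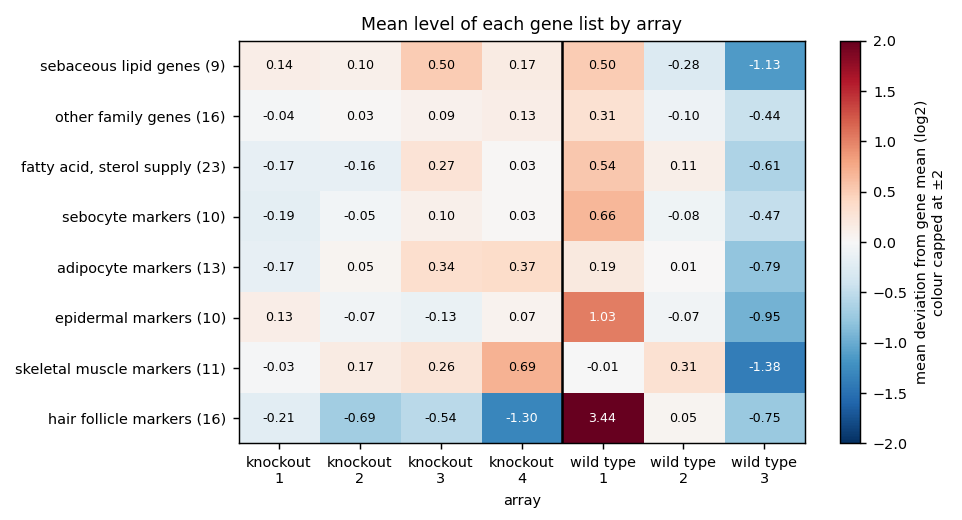
Mean deviation of each list's genes from their own means (log2, colour and printed value) by array, with the number of measured genes in brackets and a line between knockout and wild type arrays. The sebaceous lipid genes are at 0.10 to 0.50 in knockout and at 0.50, -0.28 and -1.13 in wild type, and 7 of the 8 lists are lowest on wild type replicate 3.

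The genes with profiles nearest to Scd3 and Awat1 over the 7 arrays came from outside the set. Nearness was the root mean square distance of log2 profiles centred on each gene's mean, so it selects the same genotype pattern again and adds no test of it. Nearest to Scd3 were Ifitm2, an interferon-induced transmembrane protein (distance 0.25), Sdr16c5, a retinol dehydrogenase family member (0.26), and Klra7, a killer lectin-like receptor (0.29). Far2 was the nearest of the other 8 sebaceous genes to Scd3, at 0.55 and rank 552. Nearest to Awat1 were Ahcy, which hydrolyses S-adenosylhomocysteine (0.27), Wfdc12, a whey acidic protein family member (0.30), and Rnf208, a ring finger protein (0.32). Scd3 was at rank 2318 from Awat1, with a distance of 0.60. Sdr16c5 had log2 values of 5.72, 5.85, 6.43 and 6.21 in knockout and 4.99, 5.66 and 4.27 in wild type. Like Scd3, to which its likeness had picked it, it was higher in every knockout array than in any wild type array. This was so for 1.10% of all genes, and it was not so for Ifitm2 and Klra7.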

How the data were processed

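Expression was measured in lesional mouse skin on Affymetrix arrays, 1 per sample, 4 ox40l-/- and 3 ox40l+/+. The authors deposited log2 values made by RMA, per the submitters' processing notes, and neither RMA's version nor its probe sets' definition nor a genome build is stated there. Values were used as deposited. Of 25206 probe sets, 23185 had 1 symbol in the platform annotation, 0 had several, and 2021 were unnamed here. Signal relative to background was not used here, and the number of arrays limits the precision.

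Genotypes were grouped by sample title and compared with limma 3.58.1 in R 4.3.3 (lmFit and eBayes, two-sided, Benjamini-Hochberg over 23185 genes, threshold 0.05). Differences are knockout minus wild type, with SE and 95% confidence intervals from limma. Tables and figures used Python 3.11.15 and matplotlib 3.10.9. Promoters and gene order came from RefSeq, GRCm38.p6.

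The 9 genes, the lists and the tests were chosen with earlier results of these data known. Named genes were the measured members, Tnfsf4, Scd2, Scd4 and Dgat2l6, the 3 genes with the smallest p in each other list, and the 3 profiles nearest to Scd3 and to Awat1. Listed genes without a platform symbol were not analysed here. Alternatives were moderation with trend and robust settings, a filter on the dimmest 30% of genes (which all 9 genes passed), 3 normalizations, a replicate block without knockout replicate 4, and leaving out arrays.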

Additional observations from a re-analysis of the deposited data

Results flagged for a closer look

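Among the 39 named genes, 8 (20.5%) had 1 knockout array whose gap to the next was large relative to the range of the 4, beside 20.3% of all 23185 genes. For independent normal values chance gives about 1 in 20 groups, but RMA often gave knockout arrays exactly the same value, and the share was 44.5% among genes where this was so and 6.76% among the others. Ifitm2 was named for its likeness to the Scd3 profile, so its high array is not separate from that of Scd3. Scd3 was at 7.62 on knockout replicate 3, against 6.67 to 6.68 on the other 3 knockout arrays. Awat1 was at 5.42 on knockout replicate 1, against 4.84 to 4.91. Tnfsf4 was at 3.35 on knockout replicate 1, against 2.81 to 2.82, and Lrig1 at 3.95 on that array, against 4.47 on the others. Acacb was at 4.38 on knockout replicate 3, against 4.00 on the others, and Ifitm2 at 10.47 on the same array, against 9.81 to 9.92. Scd4 was at 2.60 on knockout replicate 2, against 2.53 to 2.54, and Padi3 at 3.38 on that array, against 3.83 to 3.84.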

How the results depend on the processing

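The number of genes with a limma adjusted p under 0.05 was 1 with the dimmest 30% left out or with arrays scaled, as with the values as deposited, and 0 with trend and robust moderation, quantile normalization, median centring, the replicate block, without wild type replicates 1 and 3 together, and with any single array left out (0 to 0). Genes whose genotypes do not overlap numbered 443 as deposited, 1167 after quantile normalization, 955 after centring, 1041 after scaling, 717 to 4967 without single arrays, and 8684 without wild type replicates 1 and 3, where fewer arrays are compared. The median difference of the 9 sebaceous genes was 0.578, and it was 0.211 to 1.212 with single arrays left out, lowest without wild type replicate 3 and highest without wild type replicate 1, and that of the fatty acid and sterol genes was 0.043 and ran from -0.377 to 0.259. Same-numbered replicates did not deviate together (r = -0.086, -0.145 and 0.034 across genes), and with the replicate number as a block the median of the 9 genes was 0.567, with 7 higher. The block fit left out knockout replicate 4, which has no wild type partner. Leaving out that array without a block gave the same 0.567 and 7, so the block itself changed neither. Scd1, Scd3, Awat1, Awat2, Far2 and Mc5r kept their sign in all 14 alternatives, Far1 and Fa2h in 13, and Elovl3 in 8. Trend and robust moderation and the dim filter cannot change a gene's difference, though the filter can drop genes from a list and so move its median. The block gave the same differences as leaving out knockout replicate 4. Scd3 and Awat1 had also been noted as higher beforehand, so the tally does not measure how firm a difference is.

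Among the 24 other tested genes none was called in any alternative, and 9 changed sign in at least 1; the cause was not tested. Tnfsf4 was at -0.0568 after quantile normalization, -0.053 after scaling and -0.178 to 0.382 without single arrays. Scd4 was at -0.0341, -0.000256 and -0.0516 to 0.162 under the same settings. Without single arrays Scd2 ran from -1.07 to 0.112, Krt10 from -0.108 to 1.03 and Krt5 from -0.989 to 0.205. Without wild type replicates 1 and 3 together, where the lone wild type array is assumed to vary like the knockout arrays, Fads2 was at 0.0617, Retn at -0.0805, Mylpf at -0.00202 and Myh4 at -0.521.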
